A study of Mus musculus with 6 samples.

Results

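Protein disulfide isomerases (PDIs) are enzymes of the endoplasmic reticulum (ER) that form and rearrange the disulfide bonds of newly made secretory and membrane proteins, and the ER oxidases of the Ero1 family reoxidize them. The 10 genes described here are the rows of the deposited expression table that carry the names P4hb, Pdia3, Pdia4, Pdia5, Pdia6, Txndc5, Txndc11, Erp44, Ero1l and Ero1lb, of 25718 genes in all. Each name matched 1 row, and all 10 passed the filter on low counts. Rows were picked by gene name, and the list of names was drawn up with earlier results of these data known. The first 8 encode proteins of the PDI family and the last 2 the ER oxidases.

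Each library came from primary hepatocytes, the main secretory cells of the liver, isolated after alcohol feeding. The 2 genotypes were WT and S100a16KO+/-, with 3 libraries each. S100A16 is a calcium-binding protein, and the comparison asks how transcripts differ when 1 of its alleles is deleted under alcohol. Per the study's methods, floxed S100a16 on a C57BL/6 background was recombined with EIIa-Cre, and heterozygotes were used because homozygous loss was lethal. EIIa-Cre is generally known to act in the early embryo, which the methods do not state. For deletion in hepatocytes alone the study made a separate line with Albumin-Cre, so the deletion here was not restricted to hepatocytes. The labels call the same genotype a knockdown. All mice were age-matched young adult males given an ethanol liquid diet followed by a single ethanol gavage, so that no library of this series shows either genotype without alcohol. Cells were obtained by collagenase perfusion and Percoll separation. The labels do not say whether the libraries of a genotype came from separate mice, and p-values then measure only the spread between these libraries.

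In the ER lumen, a PDI passes its disulfide to a client protein and is left reduced. Ero1 oxidases restore it with electrons passed on to oxygen, which yields hydrogen peroxide. Hepatocytes secrete albumin, clotting factors and most other plasma proteins, many of which need disulfides, and so rely heavily on these enzymes. Several ER folding genes are known targets of the unfolded protein response, whose transcription factors read short promoter elements.

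The promoters of the 10 genes were searched for such elements as a description only. Whether these elements bear on the differences below was not tested. Windows of 300 bases, from 250 before to 50 after each annotated start, came from RefSeq on GRCm38.p6, where all 10 genes matched, Ero1l and Ero1lb under the names Ero1a and Ero1b, with 14 windows. The ER stress element (ERSE) was searched as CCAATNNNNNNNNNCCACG, ERSE-II as ATTGGNCCACG, the core of the unfolded protein response element (UPRE) as TGACGTGG and an ATF4-type element (CARE) as TGATGNAA, on both strands. ERSE, ERSE-II and the reverse complement of the UPRE core share the letters CCACG. The windows that carry an ERSE or a UPRE core are printed because so few promoters do, and that of Pdia4 because this gene had the largest fold change of the 10 and its window held none of the 4 motifs. Letters are in lower case, 5′ to 3′ in the direction of the gene, with the motif in capitals.
Pdia6 (chr12:17266339-17266638, plus strand): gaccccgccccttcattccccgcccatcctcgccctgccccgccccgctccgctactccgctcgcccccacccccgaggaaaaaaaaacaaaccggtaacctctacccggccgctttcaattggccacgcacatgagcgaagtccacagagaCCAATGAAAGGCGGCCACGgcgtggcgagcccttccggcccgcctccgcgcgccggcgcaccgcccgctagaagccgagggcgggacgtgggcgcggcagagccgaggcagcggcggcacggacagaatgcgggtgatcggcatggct
Ero1lb (chr13:12565633-12565932, plus strand): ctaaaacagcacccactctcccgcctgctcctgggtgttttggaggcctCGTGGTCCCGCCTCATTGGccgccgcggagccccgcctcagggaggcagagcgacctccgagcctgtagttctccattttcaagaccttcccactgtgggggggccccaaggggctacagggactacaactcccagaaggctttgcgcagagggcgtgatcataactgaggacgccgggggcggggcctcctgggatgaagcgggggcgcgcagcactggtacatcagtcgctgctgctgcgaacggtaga
Txndc11 (chr16:11134483-11134782, minus strand): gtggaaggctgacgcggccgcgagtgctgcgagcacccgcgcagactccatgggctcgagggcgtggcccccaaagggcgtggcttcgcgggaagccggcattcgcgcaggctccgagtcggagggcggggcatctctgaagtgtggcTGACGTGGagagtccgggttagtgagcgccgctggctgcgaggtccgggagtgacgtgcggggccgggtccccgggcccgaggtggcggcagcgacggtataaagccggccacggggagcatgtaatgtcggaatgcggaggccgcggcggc
Txndc5 (chr13:38527865-38528164, minus strand): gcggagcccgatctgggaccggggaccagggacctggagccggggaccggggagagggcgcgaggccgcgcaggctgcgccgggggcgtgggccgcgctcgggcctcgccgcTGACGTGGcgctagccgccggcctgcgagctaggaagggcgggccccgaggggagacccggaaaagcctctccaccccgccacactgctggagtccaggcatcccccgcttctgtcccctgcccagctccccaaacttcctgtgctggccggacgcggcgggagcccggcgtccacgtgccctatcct
Pdia4 (chr6:47813463-47813762, minus strand): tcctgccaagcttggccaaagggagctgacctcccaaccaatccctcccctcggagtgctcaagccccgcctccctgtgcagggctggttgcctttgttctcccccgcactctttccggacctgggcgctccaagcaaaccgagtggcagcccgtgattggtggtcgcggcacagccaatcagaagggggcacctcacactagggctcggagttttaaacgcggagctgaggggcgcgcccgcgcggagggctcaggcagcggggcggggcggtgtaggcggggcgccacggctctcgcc

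An ERSE stood in the windows of 2 of the 10 genes. It began 98 bases before the start of Pdia6, in the direction of the gene, and 201 bases before the start of Ero1lb, in the reverse direction. Of all 32851 RefSeq windows of this length, 39 (0.119%) held an ERSE. A UPRE core began 102 bases before the start of Txndc11 and 138 bases before the start in the printed Txndc5 window, against 222 windows (0.676%) overall. These percentages are of windows, and some of the 10 genes had several. The printed Txndc5 window lies wholly inside the gene as placed in the deposited data (chr13:38500079-38528490). The Txndc5 window over the 5′ end of that span (chr13:38528435-38528734) held no motif. Another Txndc5 window held a CARE 105 bases before its start, a motif found in 1304 windows (3.97%). ERSE-II, which 12 windows held (0.0365%), was in none of the 14. The windows of P4hb, Pdia3, Pdia4, Pdia5, Ero1l and Erp44 held no exact match to any of these motifs. Near matches were not counted. A match describes the letters only and is not a binding site shown in these cells.

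The genotype was visible in S100a16 itself (chr3:90537254-90543151, plus strand), with 14.7, 15.0 and 16.2 CPM under WT and 6.25, 6.07 and 5.08 CPM under S100a16KO+/-. CPM here are estimated counts divided by library size after TMM scaling, which compare 1 gene between libraries but not genes of different length. Counts added up to 67658095 to 71807834 per library. On the second principal component of log2(CPM + 1), which held 12.8% of the variance, WT replicate 1 and S100a16KO+/- replicate 2 (-10.6 and -16.9) stood apart from the other libraries (4.32 to 8.83), so the counts of called genes are also given without both. Summed hepatocyte markers lay between 108209 and 120269 CPM in WT and between 104952 and 116765 CPM in S100a16KO+/- libraries, with 2 of 6 lower (Ttr and Cyp2e1). Markers of other cells moved with genotype as well. Summed erythroid markers were 215 to 252 CPM in WT and 23.4 to 26.3 CPM in S100a16KO+/- libraries, with 5 of 5 lower. Sinusoidal endothelial markers were 217 to 232 and 320 to 328 CPM, with 5 of 6 higher and 1 lower, and stellate cell and fibroblast markers 34.9 to 38.6 and 63.4 to 70.5 CPM, with 3 of 6 higher. Macrophage and Kupffer cell markers (108 to 134 and 128 to 141 CPM, 2 of 6 higher), cholangiocyte markers (4.59 to 6.43 and 4.89 to 5.47 CPM, 1 of 4 tested lower) and B and plasma cell markers (3.69 to 3.84 and 3.05 to 3.32 CPM, 1 of 6 lower) overlapped or were low. No marker was at 0 in every library. The part of these differences in the results below was not tested, and in RNA from whole preparations fewer cells of a type and less RNA per cell cannot be told apart.

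All 8 PDI family genes rose in S100a16KO+/- hepatocytes, by 1.41-fold to 3.38-fold, and neither ER oxidase passed the test. Pdia4 and Txndc11 rose about 3-fold, Pdia6 1.76-fold and the other 5 by 1.41-fold to 1.57-fold. In edgeR's quasi-likelihood test, 8 of the 10 genes had an adjusted p under 0.05 and all 8 were higher, whereas 22.8% of the 15957 tested genes were called in either direction and 11.6% were called higher. Well-expressed genes were called more often, and above a mean level of 10 CPM, which all 10 genes here exceed, 38.1% of 6550 tested genes were called and 17% were called higher. In 8 of the 10 genes every S100a16KO+/- library lay above every WT library, which held for 19.2% of tested genes. The study's own criterion asks for a change of 2-fold or more with a p under 0.05 in DESeq2, which was read here as the unadjusted p. Applied to edgeR, Pdia4 and Txndc11 met it, as did 2.9% of tested genes in the upward direction. With DESeq2 itself 3 of the 10 met it, Ero1lb being added, against 2.99% of tested genes. The median log2 fold change of the 10 genes was 0.60, against 0.01 over all tested genes. Without WT replicate 1 and S100a16KO+/- replicate 2, 9 of the 10 were called, against 21.1% of the 16191 genes tested in that fit, and 3 were at least 2-fold higher with an unadjusted p under 0.05, against 3.07%. Ero1lb was the gene added in both counts.

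**Figure D1:**
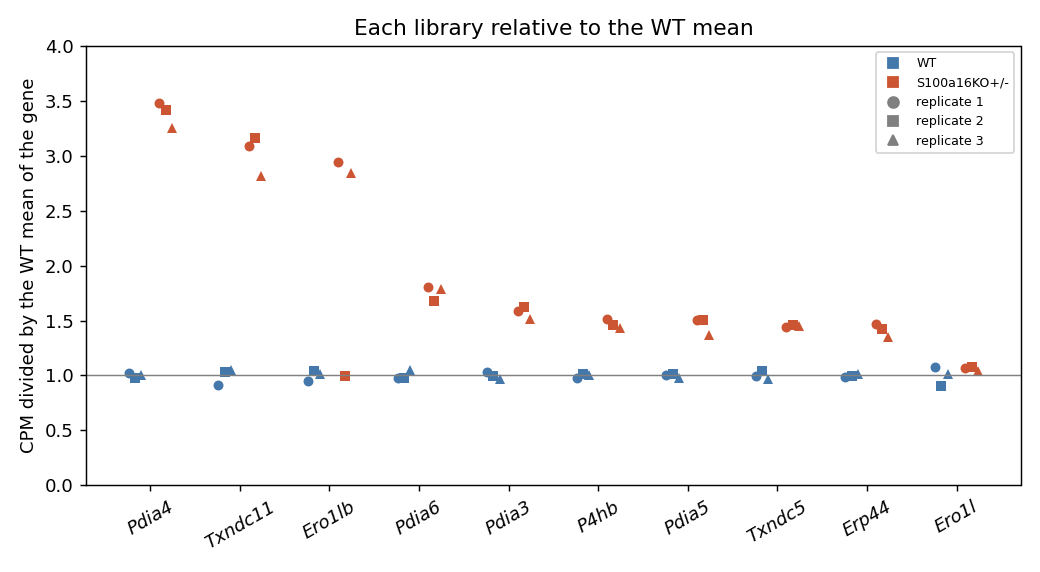
CPM of each of the 10 genes in each library divided by the WT mean of that gene, with genotype by colour and replicate by symbol, and a line at 1. The S100a16KO+/- libraries of the 8 PDI family genes lie at 1.35 or more, the WT libraries at 1.05 or less, and S100a16KO+/- replicate 2 of Ero1lb at 0.992.

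P4hb (ENSMUSG00000025130, chr11:120560298-120573253, minus strand) encodes the archetypal PDI, which also serves as the beta subunit of collagen prolyl 4-hydroxylase and as a subunit of the microsomal triglyceride transfer protein that loads lipid onto apolipoprotein B. It had 1217, 1259 and 1251 CPM in WT replicates 1, 2 and 3 and 1880.5, 1809 and 1776 CPM in S100a16KO+/- replicates 1, 2 and 3. Every S100a16KO+/- library was above every WT library. P4hb rose 1.47-fold (95% interval 1.37 to 1.57), a log2 fold change of 0.55 with a standard error of 0.04 (edgeR adjusted p = 4.77e-07).

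Pdia3 (ENSMUSG00000027248, chr2:121413775-121438687, plus strand), known as ERp57, acts on glycoproteins held by calnexin and calreticulin and sits in the complex that loads peptides onto MHC class I. It had 328, 317 and 307 CPM in WT replicates 1, 2 and 3 and 503, 516 and 478 CPM in S100a16KO+/- replicates 1, 2 and 3. The genotypes did not overlap, and the libraries within a genotype lay close together. Pdia3 rose 1.57-fold (95% interval 1.46 to 1.70, log2 fold change 0.65, standard error 0.05, edgeR adjusted p = 3.09e-07).

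Pdia4 (ENSMUSG00000025823, chr6:47796141-47813430, minus strand), known as ERp72, carries more thioredoxin-like catalytic domains than P4hb. It had 104, 98.8 and 102 CPM in WT replicates 1, 2 and 3 and 353, 347 and 330.3 CPM in S100a16KO+/- replicates 1, 2 and 3. This was the largest fold change of the 10 genes, with all 3 S100a16KO+/- libraries more than 3 times the WT mean and WT libraries within a narrow range. Pdia4 went from 102 ± 2.71 CPM (WT) to 343 ± 11.7 CPM (S100a16KO+/-) with the SD over 3 libraries, a 3.38-fold rise (95% interval 3.13 to 3.65, log2 fold change 1.76, standard error 0.05, edgeR adjusted p = 1.09e-11).

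Pdia6 (ENSMUSG00000020571, chr12:17266545-17284770, plus strand), known as P5, binds the ER chaperone BiP and restrains the stress sensor IRE1. It had 169, 170.0 and 182 CPM in WT replicates 1, 2 and 3 and 314, 292 and 311 CPM in S100a16KO+/- replicates 1, 2 and 3. The genotypes did not overlap, and S100a16KO+/- replicate 2 was the lowest of its genotype. Pdia6 rose 1.76-fold (95% interval 1.62 to 1.9, log2 fold change 0.81, standard error 0.05, edgeR adjusted p = 6.03e-08).

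Pdia5 (ENSMUSG00000022844, chr16:35397312-35490873, minus strand) encodes PDIR, a PDI that has been linked to activation of the stress sensor ATF6. It had 60.8, 61.7 and 59.5 CPM in WT replicates 1, 2 and 3 and 91.6, 91.5 and 82.9 CPM in S100a16KO+/- replicates 1, 2 and 3. The lowest S100a16KO+/- library, replicate 3, was still well above the highest WT library. The rise of Pdia5 was 1.46-fold (95% interval 1.34 to 1.59, log2 fold change 0.55, standard error 0.06, edgeR adjusted p = 8.87e-06).

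Txndc5 (ENSMUSG00000038991, chr13:38500079-38528490, minus strand), known as ERp46, is a PDI that introduces disulfides quickly and is reoxidized by peroxiredoxin 4 as well as by Ero1. It had 112, 117 and 109 CPM in WT replicates 1, 2 and 3 and 162, 165 and 164 CPM in S100a16KO+/- replicates 1, 2 and 3. The S100a16KO+/- libraries were almost level with each other and above all WT libraries. Txndc5 rose 1.45-fold (95% interval 1.34 to 1.57, log2 fold change 0.54, standard error 0.05, edgeR adjusted p = 3.24e-06).

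Txndc11 (ENSMUSG00000022498, chr16:11074911-11134650, minus strand) encodes a membrane-bound member that works with the EDEM proteins in the disposal of misfolded glycoproteins. It had 17.3, 19.6 and 19.9 CPM in WT replicates 1, 2 and 3 and 58.5, 59.9 and 53.3 CPM in S100a16KO+/- replicates 1, 2 and 3. All 3 S100a16KO+/- libraries lay at 2.82 to 3.17 times the WT mean. Txndc11 went from 18.9 ± 1.40 CPM (WT) to 57.2 ± 3.50 CPM (S100a16KO+/-) with the SD over 3 libraries, a 3.02-fold rise (95% interval 2.71 to 3.37, log2 fold change 1.60, standard error 0.07, edgeR adjusted p = 1.23e-09).

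Erp44 (ENSMUSG00000028343, chr4:48193323-48279558, minus strand) encodes a PDI family protein that cycles between the ER and the Golgi and holds back proteins lacking an ER retrieval signal, the Ero1 oxidases among them. It had 56.6, 57.0 and 58.2 CPM in WT replicates 1, 2 and 3 and 84.0, 81.4 and 77.3 CPM in S100a16KO+/- replicates 1, 2 and 3. The genotypes did not overlap. Erp44 had the smallest rise of the 8, at 1.41-fold (95% interval 1.3 to 1.53, log2 fold change 0.50, standard error 0.06, edgeR adjusted p = 1.39e-05).

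Transcripts of other genes overlap those of 8 of the 10, from the other strand in 4 (Pdia3, Pdia6, Txndc5 and Txndc11) and from the same strand alone in the other 4, and whether the counting used strand is not given in the sources used here. The highest count of any overlapping gene was 656, for Bmp6 over Txndc5, where Txndc5 itself had 7433 or more. Catsper2 over Pdia3 reached 383, against at least 20977 for Pdia3, and Snn over Txndc11 reached 111, against at least 1183 for Txndc11.

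Ero1l (ENSMUSG00000021831, chr14:45283087-45318572, minus strand) encodes the widely expressed oxidase Ero1α. It had 22.1, 18.6 and 20.8 CPM in WT replicates 1, 2 and 3 and 22.0, 22.0 and 21.4 CPM in S100a16KO+/- replicates 1, 2 and 3. The genotypes overlapped, WT replicate 1 being the highest of all 6 libraries. The fold change was 1.06 with a 95% interval of 0.940 to 1.2 (edgeR adjusted p = 0.516). The interval takes in a small rise and a small fall, and its upper end lies below the lower ends of the intervals of all 8 PDI family genes.

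Ero1lb (ENSMUSG00000057069, chr13:12565874-12609528, plus strand) encodes Ero1β, the form best known from pancreatic cells. It had 36.8, 40.5 and 39.5 CPM in WT replicates 1, 2 and 3 and 115, 38.6 and 111 CPM in S100a16KO+/- replicates 1, 2 and 3. S100a16KO+/- replicates 1 and 3 were 2.95 and 2.84 times the WT mean, close to the ratios of Pdia4 and Txndc11, whereas replicate 2 lay within the WT range at 0.992 times the WT mean. The counts behind these values were 2514, 2851 and 2706 in WT and 7951, 2484 and 7981 in S100a16KO+/- libraries. The genotype means went from 39.0 ± 1.91 CPM (WT) to 88.1 ± 42.8 CPM (S100a16KO+/-), with the SD over 3 libraries. With this spread the 2.26-fold difference had a 95% interval of 0.917 to 5.58 and was not called (edgeR adjusted p = 0.181).

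The Ero1lb call turned on that library and on the test. Without S100a16KO+/- replicate 2 its log2 fold change was 1.53 with a standard error of 0.06 (edgeR adjusted p = 3.74e-10), and without WT replicate 1 as well it was 1.49 (edgeR adjusted p = 9.24e-12). With all 6 libraries, DESeq2 gave 1.17 (adjusted p = 0.0499), and 9 of the 10 genes were then called against 24.2% of tested genes. In S100a16KO+/- replicate 2 every PDI family gene lay above all WT libraries, and it was the lowest of its genotype for 1 of the 8 by CPM and for 6 of the 8 by the deposited FPKM, which are not TMM-scaled. Its S100a16 level of 6.07 CPM lay between those of the other libraries of its genotype. Of the same 6550 genes above 10 CPM, 5 were at least 1 log2 unit below both other S100a16KO+/- libraries in replicate 2 while those lay within 0.5 of each other, against 2 to 4 such genes in each of the other libraries. These 5, looked up after the values were seen, were Ero1lb, Hnrnpa3, Mup16, H2-Q1 and Nnt. The nearest tested gene that does not overlap it, Gpr137b-ps, 5529 bases away on the opposite strand, had 1.95, 1.22 and 1.43 CPM in WT and 7.75, 8.81 and 8.83 CPM in S100a16KO+/- libraries, with replicate 2 as high as the others.

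The ratio of Ero1lb to Ero1l, which sets the paralogs against each other within a library, had log2 values of 0.73, 1.13 and 0.93 in WT and 2.38, 0.81 and 2.37 in S100a16KO+/- libraries. Replicates 1 and 3 of S100a16KO+/- were above all WT libraries and replicate 2 was among them. The genotypes differed by 0.93 on the log2 scale (two-sided exact permutation test over 20 assignments, p = 0.3), where 3 libraries against 3 cannot go below p = 0.1. The test could thus not reach p under 0.05 with any values, and it does not decide whether the 2 oxidases responded differently.

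Levels of different genes were compared by FPKM, which corrects for transcript length. In WT hepatocytes the order from the highest mean was P4hb (388 ± 24.1 FPKM), Pdia3 (90.1 ± 2.60), Pdia6 (41.5 ± 2.96), Pdia4 (37.8 ± 0.831), Txndc5 (22.4 ± 1.49), Pdia5 (19.6 ± 0.968), Erp44 (15.0 ± 0.806), Ero1lb (5.23 ± 0.482), Ero1l (3.45 ± 0.190) and Txndc11 (1.91 ± 0.220), each with the SD over 3 libraries. P4hb was 4.31 times the next gene. Pdia6 and Pdia4 were the only neighbours in this order whose ranges overlapped.

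In S100a16KO+/- hepatocytes P4hb stood at 572 ± 32.9 FPKM and Pdia3 at 143 ± 3.54 FPKM. Pdia4, at 128 ± 6.01 FPKM, now ranked next, above Pdia6 at 73.4 ± 6.40 FPKM, with no overlap. Txndc5 (32.7 ± 1.48), Pdia5 (28.7 ± 1.32) and Erp44 (21.2 ± 1.16) kept their places. Txndc11 (5.80 ± 0.219) was above Ero1l (3.70 ± 0.149), the reverse of their order in WT, and Ero1lb (12.1 ± 6.19) had a range that took in that of Txndc11.

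**Figure D2:**
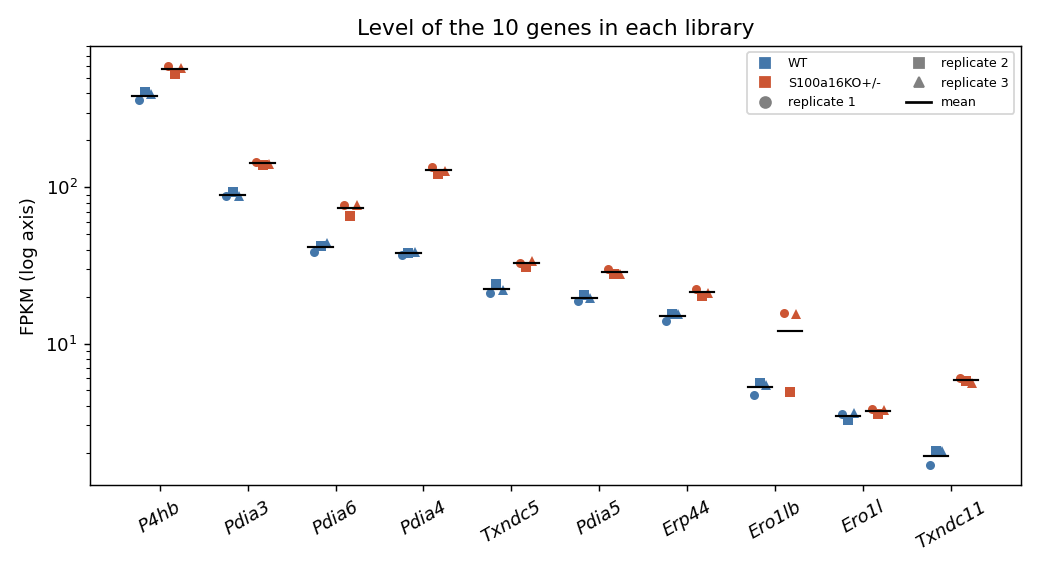
FPKM of the 10 genes in each library on a log axis, ordered by the WT mean, with genotype by colour, replicate by symbol and the mean of 3 libraries as a bar. Levels run from 1.91 FPKM for Txndc11 to 388 FPKM for P4hb in WT, and Pdia4 passes Pdia6 in S100a16KO+/- hepatocytes.

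Summed over the 10 genes, FPKM came to 588, 650.0 and 637 under WT and to 1069, 957 and 1035 under S100a16KO+/-. All S100a16KO+/- sums were above all WT sums, and the means of 625 ± 32.5 and 1020.3 ± 57.4 FPKM (SD, n = 3 each) had a ratio of 1.63. P4hb, the most abundant, weighs most in this sum, and without it the sums were 237 and 449 FPKM, a ratio of 1.89.

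The make-up of the sum shifted from P4hb towards Pdia4. P4hb held 62.1 ± 0.641% in WT and 56.0 ± 0.116% in S100a16KO+/- hepatocytes, and Pdia4 6.05 ± 0.209% and 12.6 ± 0.194% (SD, n = 3 each). Pdia3 held 14.4% and 14%, Pdia6 6.63% and 7.18%, and Txndc11 0.305% and 0.570%. The shares of Txndc5, Pdia5 and Erp44 were 3.59%, 3.13% and 2.39% in WT and 3.21%, 2.81% and 2.08% in S100a16KO+/- hepatocytes, since these genes rose by less than the sum. The 2 oxidases together held 1.40%, 1.36% and 1.41% under WT and 1.83%, 0.883% and 1.86% in S100a16KO+/- replicates 1, 2 and 3. Where Ero1lb was high the oxidase share was thus above that of WT, and in replicate 2 it was below.

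**Figure D3:**
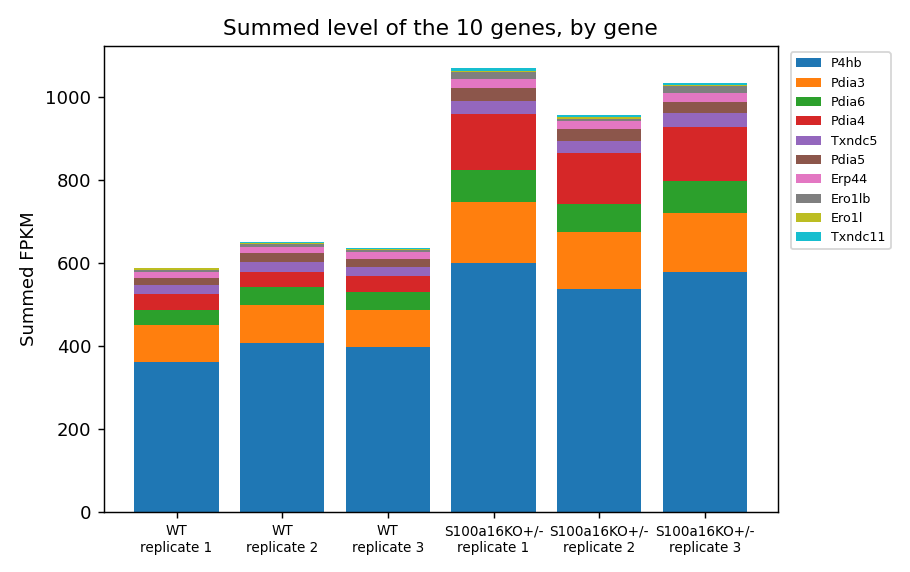
Summed FPKM of the 10 genes in each library, stacked by gene. The bars reach 588 to 650.0 FPKM in WT and 957 to 1069 FPKM in S100a16KO+/- libraries, and the Pdia4 segment grows from 6.05% to 12.6% of the bar on average.

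The other genes of disulfide chemistry had smaller changes at the median. Of 44 further genes in 4 lists, 37 were tested, 10 were called higher and 6 lower by edgeR at an adjusted p under 0.05, and none was 2-fold higher or lower. The 16 called were 43.2% of the 37, against 22.8% of all tested genes (11.6% higher and 11.2% lower) and 38.1% of those above 10 CPM. Their median log2 fold change was 0.10. No test compared these lists with the 10 genes or with all genes.

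Among the other PDI family and ER thioredoxin-like genes, 3 of 10 tested were called higher and 1 lower, with a median log2 fold change of 0.09. Erp29, a PDI-fold protein without an active-site disulfide that helps export secretory proteins, had 25.9, 24.6 and 25.9 CPM in WT and 39.2, 37.9 and 39.4 CPM in S100a16KO+/- libraries. It rose by 0.61 on the log2 scale (edgeR adjusted p = 5.93e-06). Tmx2, a membrane-bound member with the highest mean FPKM of this list over all 6 libraries, had 35.5, 38.4 and 35.9 CPM in WT and 24.6, 23.2 and 25.2 CPM in S100a16KO+/- libraries. It fell, with a log2 fold change of -0.59 (edgeR adjusted p = 1.71e-05), which took its mean FPKM from 14 to 9.39, below the 12.3 of Txndc12 in S100a16KO+/- hepatocytes. The other genes called higher were Dnajc10, a reductase that unpicks disulfides of misfolded proteins (0.49), and Txndc12 (0.36). Pdia2, Erp27, Agr2 and Casq2 were too low to test, and no row was named Agr3.

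Other enzymes that supply or use oxidizing equivalents in the ER were called higher in 2 of 6 tested genes, with a median of 0.21. Vkorc1, the vitamin K epoxide reductase and the most abundant of this list by FPKM, went from 118 to 138 CPM (log2 fold change 0.23, edgeR adjusted p = 0.00673), and Qsox1, a sulfhydryl oxidase, from 324 to 436 CPM (0.43, edgeR adjusted p = 2.53e-05). For Prdx4, the peroxiredoxin that can reoxidize PDIs, the log2 fold change of 0.20 did not pass (edgeR adjusted p = 0.0921). Gpx8 was too low to test.

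Of the partners that PDIs work with, 4 of 9 tested genes were called higher and none lower, with a median of 0.29. Calr, the lectin chaperone calreticulin and the most abundant of this list, had 501, 451 and 466 CPM in WT and 784, 829 and 742 CPM in S100a16KO+/- libraries. It rose by 0.73 (edgeR adjusted p = 2.83e-07), and Canx, its membrane-bound counterpart, by 0.45 (edgeR adjusted p = 0.000100). The subunits that pair with P4hb were not called. Mttp, of the triglyceride transfer protein, had a log2 fold change of -0.01 (edgeR adjusted p = 0.902), and P4ha1 and P4ha2, of prolyl 4-hydroxylase, 0.24 and 0.31 (edgeR adjusted p = 0.329 and 0.203).

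The cytosolic and mitochondrial thioredoxin and glutaredoxin genes, which keep thiols reduced outside the ER, were called higher in 1 of 12 and lower in 5 of 12, with a median of -0.13. Glrx, glutaredoxin, fell from 34.0 ± 2.10 to 21.4 ± 0.386 CPM (SD, n = 3 each, log2 fold change -0.67, edgeR adjusted p = 7.79e-06). Txnip, which binds and inhibits thioredoxin, rose from 92.2 ± 3.63 to 169 ± 4.35 CPM (SD, n = 3 each, log2 fold change 0.88, edgeR adjusted p = 2.86e-08). Txn1, thioredoxin itself and the most abundant of the list, had a log2 fold change of -0.22 that did not pass (edgeR adjusted p = 0.129). The other genes called lower were Txnrd1, Txnrd2, Glrx5 and Txn2, at -0.34 to -0.18.

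**Figure D4:**
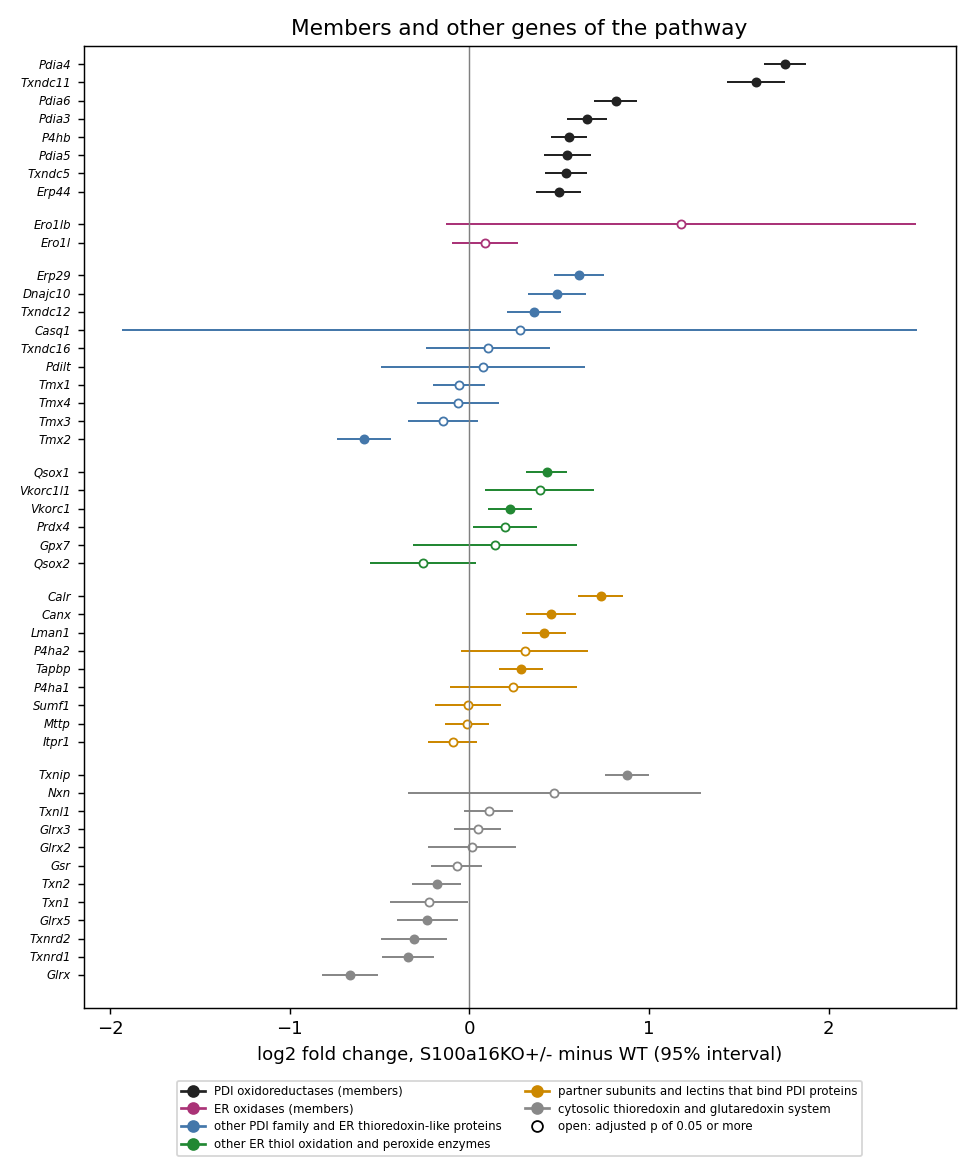
Log2 fold change of S100a16KO+/- against WT for the 10 genes and the 37 tested genes of the 4 other lists, with 95% intervals, filled where the edgeR adjusted p was under 0.05. The 8 PDI family genes lie between 0.50 and 1.76, the interval of Ero1lb runs from -0.12 to 2.48, and the other lists lie between -0.67 and 0.88.

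The genes whose pattern over the 6 libraries was nearest to each of the 10 were ranked by the Euclidean distance of log2(CPM + 1), centred on each gene, among 6549 tested genes above a mean level of 10 CPM. Values were not scaled, so genes with a similar fold change between genotypes come out near each other. Shared regulation was not tested. For Pdia4 they were Dnajb9 (distance 0.0616), Got1 (0.150) and Ppargc1a (0.159), and for Txndc11 Gfpt1 (0.133), Id3 (0.240) and Eif2ak3 (0.248). Those nearest to P4hb were Ssr3, Esyt1 and Tram1, to Pdia3 Cyp2b13, C8a and Dsg1c, to Pdia5 Slc16a10, Srpr and Cyp17a1, to Pdia6 Slc35e2, Edem1 and Trp53inp1, to Txndc5 Lrrc59, Adcy9 and Srpr, and to Erp44 Ugt2b5, Marf1 and Tmed5. Ero1l lay nearest to Rpl17-ps3, Ftsj3 and Arpc3. For Ero1lb the nearest were Mup16 (0.854), Gm20427 (0.912) and Tmed9 (0.967), all several times farther away than the nearest gene of any of the other 9.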

How the data were processed

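RNA of primary hepatocytes was sequenced from poly(A)-selected, dUTP-marked libraries with molecular identifiers. The authors deposited 1 table with estimated counts and FPKM per gene for the 6 libraries. The submitters' processing notes name cutadapt 1.9, HISAT2 2.0.4, UMI-tools, StringTie 1.3.4d, DESeq2, edgeR and mm10, without their order. The deposited estimated counts are not scaled for depth and pile up at multiples of 4, so 1 fragment is worth about 4 counts, and 3 fragments, the most that a count of 0 allows, are 12 counts or 0.167 to 0.187 CPM. The deposited FPKM were scaled by the authors for length and depth. The limit set by a count of 0 covers counting error only, while the intervals of fold changes come from the edgeR fit and include the spread between libraries.

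Counts were rounded and tested with edgeR 4.0.16 (TMM, filterByExpr, robust quasi-likelihood fit, two-sided, no covariate) in R 4.3.3, with Benjamini-Hochberg adjustment over 15957 genes. The script was tested on simulated data. Alternatives used limma 3.58.1, DESeq2 1.42.0, other scalings, filters and pseudocounts, a replicate block, and fits without single libraries. Leaving out WT replicate 1 and S100a16KO+/- replicate 2 together was added after seeing the data. Positions are those of the table on GRCm38. Gene biotypes and overlaps came from GENCODE M21, in which 7 of the 10 genes have the same start and end.

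The 10 genes, the other lists and the marker lists were chosen with earlier results of these data known. All 10 genes are named, and of the other lists the genes called with a fold change of at least 1.5, the most abundant of each by FPKM, and a few others chosen for their link to the 10 after their values were seen. No batch is given in the labels, and no sequence of the proteins was used here.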

Additional observations from a re-analysis of the deposited data

How the results depend on the processing

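Under 16 alternatives, 157 of 160 log2 fold changes of the 10 genes kept their direction and their side of the threshold, and 3, all of Ero1lb, became called. The largest adjusted p of any PDI family gene was 0.0014 (Erp44). The log2 fold change of Ero1lb ranged from 0.92 to 1.53 and its adjusted p from 9.24e-12 to 0.382. Of the 10 genes, 8 or 9 were called under each alternative and 2 or 3 were at least 2-fold higher, with 9 and 3 where S100a16KO+/- replicate 2 was left out and with DESeq2. The number of genes called in all, beside which these counts stand, moved with the filter. It was 3548 of 25718 tested with no filter on low counts and 3732 of 11938 at a mean of at least 1 CPM. With counts divided by 4 it was 3860 of 13010. Median-ratio and upper-quartile scaling gave 3641 and 3611 of 15957. Of all tested genes, 2.9% were at least 2-fold higher with an unadjusted p under 0.05 in the main edgeR fit. The share was 2.99% with DESeq2 and 3.07% without both WT replicate 1 and S100a16KO+/- replicate 2. Leaving out each library gave 2734 to 3302 called genes in all, of 16491 to 16590 tested. Of the 10 genes 8 to 9 were then called, and of the other lists 13 to 17. The log2 ratio difference of Ero1lb to Ero1l was then 0.66 to 1.45 and the summed FPKM ratio 1.59 to 1.68. With limma the number of called genes fell from 3643 to 2228 on log2(FPKM + 1) and 2208 on log2(FPKM + 0.1), over 9054 tested genes, and 12 of the other lists were called. The median log2 fold change of all genes reached at most 0.043 under another scaling. Same-numbered libraries did not deviate together (r = -0.0472, -0.0237 and 0.0518), and with the replicate number as a block 3082 genes were called in all, 8 of the 10 and 16 of the other lists, the ratio difference of 0.93 having an exact permutation p of 0.5. With 3 libraries a genotype and 1 library at odds, the size of the Ero1lb difference is the least certain of the 10.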

Other observations

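Of the 5 genes that were low in S100a16KO+/- replicate 2 alone among its genotype, looked up after the values were seen, Mup16, 1 of a family of near-identical paralogs and so uncertain, had a pattern like that of Ero1lb, with 10085, 10608 and 11712 counts in WT and 18196, 7895 and 18870 in S100a16KO+/- libraries. Hnrnpa3 and H2-Q1 also varied among the WT libraries, with 364, 1790 and 357 counts for Hnrnpa3 and 375, 536 and 1321 for H2-Q1. Nnt is listed under 2 identifiers at nearly the same place whose counts traded places between libraries, with 593, 2317 and 406 counts for one and 2321, 338 and 2616 for the other in the S100a16KO+/- libraries. Ero1lb has 1 row in the table, and its only overlapping annotated gene, the snoRNA Gm25483, had at most 2 counts. Why Ero1lb was low in S100a16KO+/- replicate 2 was not tested.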
